A study of Mus musculus with 5 samples.

Results

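The cytosolic ribosomal protein genes were followed in ovaries of newborn mice that lack Lhx8, a homeobox gene of oocytes. Members were the probe sets that list a single gene symbol made of Rpl or Rps and a number, alone or with a suffix such as a, x or l, together with Rplp0, Rplp1, Rplp2 and Rpsa. S6 kinase genes, Rpl39l and pseudogene symbols were left out. The rule found 104 probe sets of 48 genes among 45037 probe sets that are not array controls and 18193 genes. Of the 84 protein-coding genes of the RefSeq table whose symbols fit the rule, 37, Rplp1 among them, have no probe set with a single symbol here and were not analysed. Of the members, 46 genes and 92 probe sets were bright enough to be tested. Rpl3l and Rps16, each with a single dim probe set, were not.

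RNA came from 5 pools on 1 oligonucleotide array each: 3 pools of Lhx8 null ovaries, numbered 1, 2 and 3, and 2 of wild type ovaries, numbered 2 and 3. A pool held 50 ovaries of at least 25 animals, taken at postnatal day 0.5. The label of the wild type arrays reads C57/129, and the series text gives the null and wild type animals the same genetic background. How the null allele was made and which part of the gene it lacks is not described in the sources used here. Nothing in the labels says how the pools were made independent, so p-values measure only the spread between these pools. Lhx8 itself had signals of 332.6, 159 and 347.4 across null pools against 6450.1 and 5223.1 across wild type pools, and fell by 4.45 log2 units (SE 0.29). Whole ovary RNA was measured, so fewer cells of a type and less RNA per cell cannot be told apart in any value below.

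Cytosolic ribosomes are built from a small subunit, whose proteins carry Rps symbols, and a large subunit, whose proteins carry Rpl symbols. Growing cells make these proteins in nearly equal numbers, and their mRNAs are among the most abundant of any cell. Many of these mRNAs start with a C and a run of pyrimidines, the 5' terminal oligopyrimidine tract, through which mTORC1 signalling and the RNA-binding protein LARP1 control their translation. Mammals also carry paralogs of some core genes, such as Rps4l, Rps27l, Rpl7l1, Rpl22l1 and Rpl3l, several of them with restricted expression. In the newborn ovary, oocytes are being enclosed into primordial follicles, and a large store of ribosomes and mRNA is built later, as oocytes grow.

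Start regions were read from the RefSeq promoter table of build GRCm38.p6 to show what these genes share beyond their symbols. A start region was found for 42 of the 48 members, not for Rps4l. The first listed start was used for the 7 members with more than 1. The lines below give 10 bases before and 20 bases after the start, 5' to 3' on the gene's strand. Capitals mark a C followed by at least 4 more pyrimidines. Rps6, Rplp2, Rpl35, Rpl12 and Rps27l are shown as genes with such a tract, and Rpsa and Rps4x as genes without one in these bases.
Rps6: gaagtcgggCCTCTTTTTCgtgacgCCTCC
Rplp2: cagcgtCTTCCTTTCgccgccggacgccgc
Rpl35: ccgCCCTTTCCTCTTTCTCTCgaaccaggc
Rpl12: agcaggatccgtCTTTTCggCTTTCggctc
Rps27l: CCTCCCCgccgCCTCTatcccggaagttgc
Rpsa: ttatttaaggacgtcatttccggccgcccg
Rps4x: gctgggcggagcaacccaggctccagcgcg
The windows lie at chr4:86857348-86857377 (minus strand) for Rps6, chr7:141447641-141447670 (plus) for Rplp2, chr2:39005112-39005141 (minus) for Rpl35, chr2:32961702-32961731 (plus) for Rpl12, chr9:66946076-66946105 (plus) for Rps27l, chr9:120127756-120127785 (plus) for Rpsa and chrX:102189372-102189401 (minus) for Rps4x. Such a tract stood in this window in 26 of 42 members (61.9%) and in 35.8% of the 27025 start regions of the table. The start base of a table entry need not be the base at which these ovaries begin the mRNA.

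The 250 bases before the start were searched with the first 50 bases after it for short motifs on both strands. CTTCCG, whose reverse complement CGGAAG holds the core read by ETS-family factors, was present in 29 of 42 members (69.0%) and in 17.2% of all start regions. TATAAA, the TATA box letters, was present in 5 members (11.9%) and in 14.2% of all. The regions before the start of Rps6 and Rpsa, which hold 3 copies of CTTCCG or its reverse complement each, and of Rps27l, which holds 0 before the start and 1 just after it and so counts among the 29, are printed with the motif in capitals.
Rps6: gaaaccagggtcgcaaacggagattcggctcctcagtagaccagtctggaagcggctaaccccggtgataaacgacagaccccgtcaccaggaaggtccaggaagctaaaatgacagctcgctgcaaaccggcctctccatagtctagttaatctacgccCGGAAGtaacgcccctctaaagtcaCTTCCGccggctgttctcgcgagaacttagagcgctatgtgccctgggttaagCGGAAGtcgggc
Rpsa: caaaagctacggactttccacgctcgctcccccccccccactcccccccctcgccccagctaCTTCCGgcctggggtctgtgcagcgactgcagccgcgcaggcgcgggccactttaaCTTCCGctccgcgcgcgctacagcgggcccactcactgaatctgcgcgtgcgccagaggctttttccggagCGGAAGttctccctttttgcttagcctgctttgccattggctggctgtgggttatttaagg
Rps27l: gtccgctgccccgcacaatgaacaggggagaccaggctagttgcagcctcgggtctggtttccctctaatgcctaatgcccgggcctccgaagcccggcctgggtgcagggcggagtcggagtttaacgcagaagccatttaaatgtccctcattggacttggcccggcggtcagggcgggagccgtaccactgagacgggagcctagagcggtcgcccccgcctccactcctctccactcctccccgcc
These bases lie at chr4:86857368-86857617 (minus strand), chr9:120127516-120127765 (plus) and chr9:66945836-66946085 (plus). All of these are letters in a window of the reference, not measured binding. Among tested members, 5 of the 28 with CTTCCG and 3 of the 12 without it were called higher or lower in the comparison described next, with median log2 fold changes of 0.04 and 0.10.

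Ribosomal protein genes were among the brightest on the arrays. Of the 100 brightest probe sets, members took 32, 36 and 36 places across null pools against 31 and 32 across wild type pools. Probe sets that list several symbols, at least 1 of them ribosomal, are not members. They took a further 44, 43 and 42 places across null pools against 39 and 41 across wild type pools. The signal of 62 member probe sets was above 10000 on every array, 20 were under 500 on every array and 22 lay between or crossed a limit. Members made up 5.76%, 5.81% and 5.33% of the summed deposited signal across null pools against 4.46% and 4.17% across wild type pools. These shares do not overlap between the groups.

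Whether the genes were higher as a group depended on how the arrays were scaled. With quantile scaling, the main setting, 7 of the 46 tested genes were higher in Lhx8 null ovaries (15.2%), 2 were lower (4.35%) and the other 37 passed in neither direction (two-sided limma fit, threshold of 0.05 on the Benjamini-Hochberg adjusted p). Over all 10916 tested genes 25.6% were higher and 22.3% lower, so the members' shares were not above the background in either direction. Quantile scaling gives every array the same distribution of values. Ribosomal probe sets filled most of the 100 brightest places on each array, so a rise shared by them would largely be removed. These shares therefore cannot show whether the family rose as a whole. The members' median log2 fold change was 0.04, with quartiles of -0.03 and 0.14. The median of all tested genes was 0.04 with quartiles of -0.39 and 0.48. The null arrays lay above both wild type arrays for 17 members and below both for 6, against 36% and 31.8% of all tested genes. With the deposited scaling, 39 of the 46 were higher and 1 was lower, against 27.3% and 22.5% of all tested genes. The median was then 0.48, a 1.40-fold difference, and 0.06 for all tested genes. In that scaling the null arrays lay above both wild type arrays for 40 members and below both for 3 (37.3% and 31.2% of all tested genes).

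Further scalings gave other counts. With each array centred on its median, 8 members were higher and 3 lower, against 15.8% and 31.3% of all tested genes. The members' median was then 0.23 and that of all tested genes -0.18. With cyclic loess, added after the data were seen, 19 were higher and 2 lower against 25% and 23.8%, and the members' median of 0.25 stood beside 0.02. With quantile scaling learned from the probe sets that list no ribosomal protein symbol, also added afterwards, 9 were higher and 2 lower. These are 19.6% and 4.35% of the tested members, against 25.6% and 22.2% of all tested genes. The members' median of 0.07 stood beside 0.04 for all tested genes. Of the separate subunits, 3 of 24 Rpl genes and 4 of 22 Rps genes (with Rpsa) were higher with quantile scaling, and 20 and 19 with the deposited scaling.

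**Figure D1:**
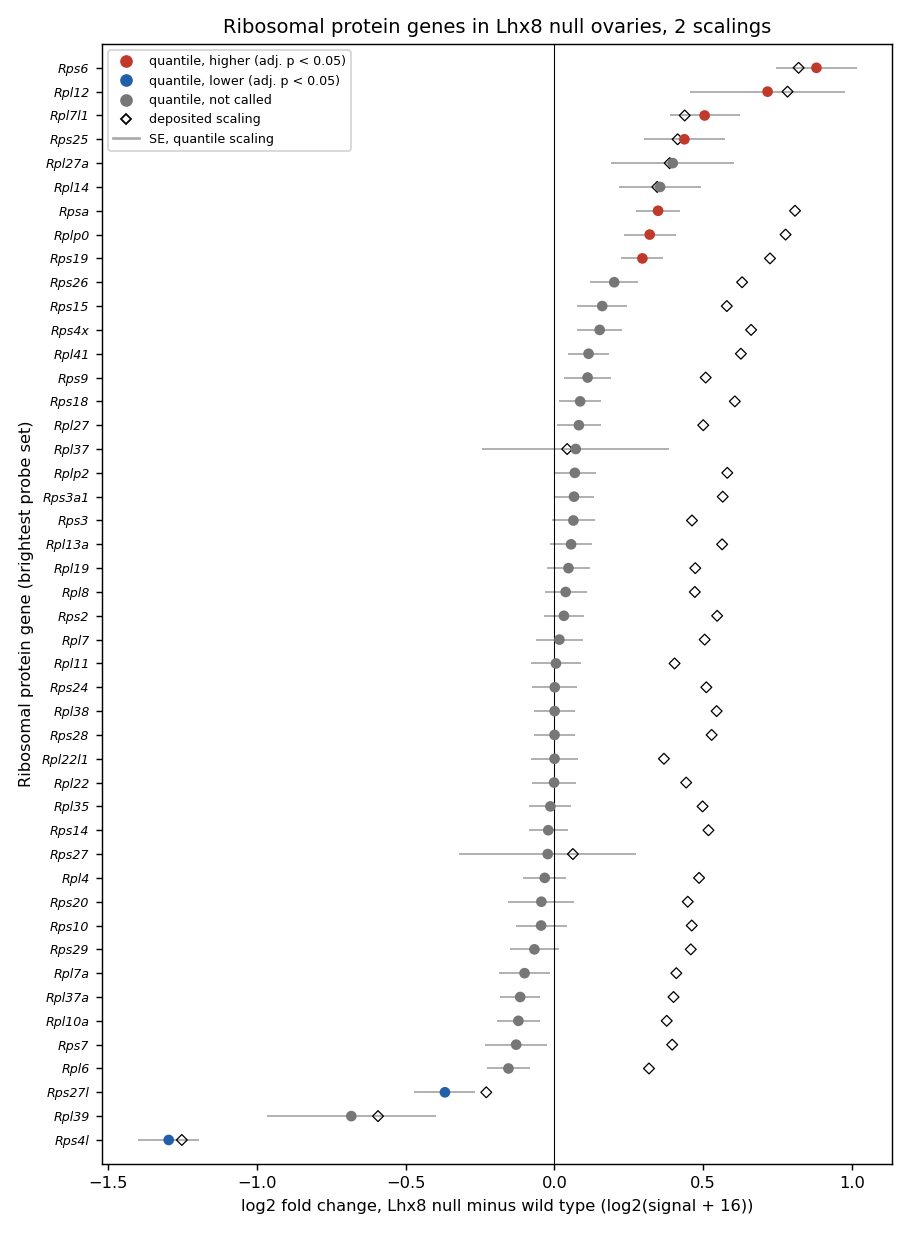
Log2 fold change (null minus wild type) of the 46 tested ribosomal protein genes, each by its brightest probe set; filled points with SE bars are quantile scaling (3 null, 2 wild type arrays), open diamonds the deposited scaling. Most filled points lie near 0 and most diamonds near the deposited median of 0.48. Rps6, Rps4l and other genes with dimmer probe sets, such as Rpl14, Rpl27a and Rps25, lie in nearly the same place under both.

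Other genes of the same brightness moved with the scaling too. At a mean level of 14 to 16 on the log2(signal + 16) scale there were 35 ribosomal protein genes. Their median log2 fold change was 0.51 with the deposited scaling, and that of the 37 other genes at this level was 0.45. With quantile scaling the medians were 0.02 for the members and -0.04 for 35 other genes. They were 0.25 and 0.22 with cyclic loess, and 0.26 and 0.21 with median centring. Spiked-in bacterial and phage controls, which carry no ovary RNA, were also brighter on null arrays as deposited, by 1.74-fold for BioB, 2.12-fold for BioC, 1.52-fold for BioD and 1.90-fold for Cre. The 3' to 5' ratio of the Actb controls, which rises as RNA degrades, was 1.69, 1.60 and 1.48 across null pools against 1.43 and 1.39 across wild type pools. That of the Gapdh controls was 0.802, 0.658 and 0.660 against 0.666 and 0.625 and overlapped between the groups. The part of these differences in the members' values was not tested.

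**Figure D2:**
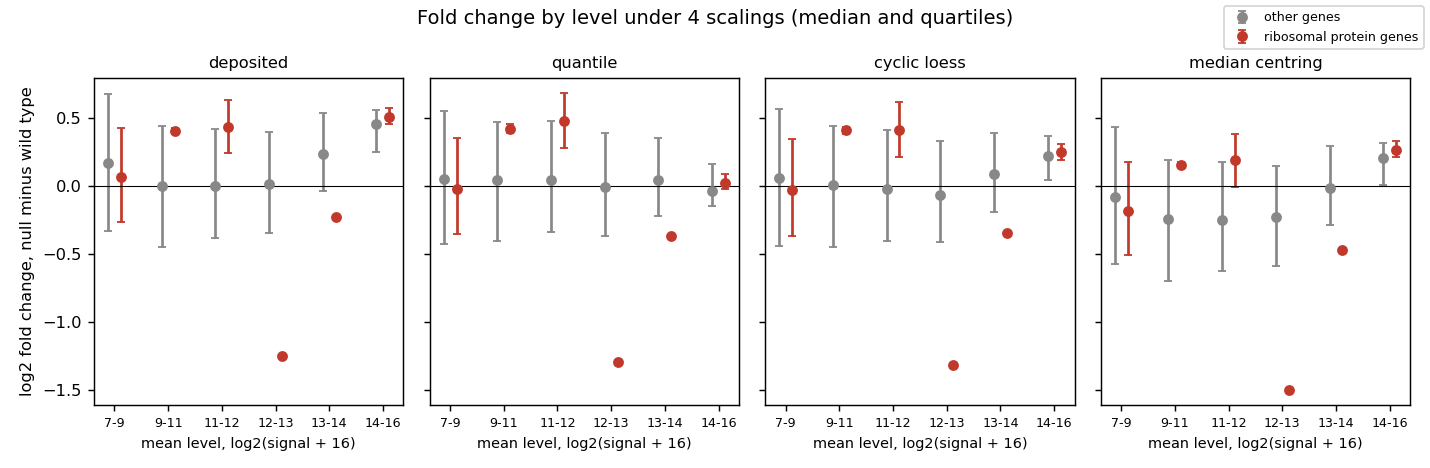
Median log2 fold change (points) with quartiles (bars) of ribosomal protein genes (red) and other tested genes (grey) by mean level, under 4 scalings of the same 5 arrays. In the brightest class (14 to 16) both medians are 0.51 and 0.45 as deposited and 0.02 and -0.04 after quantile scaling; the red point at level 12 to 13 is Rps4l alone.

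Markers of cell types differed between the groups as well. All 10 tested germ cell markers fell with quantile scaling, and their summed signal was 7536 to 11804 on null arrays against 58590 to 59190 across wild type pools. Of the pregranulosa markers, 6 of 7 fell. All 7 tested tract epithelium markers and all 8 stroma markers rose, as did 7 of 8 macrophage and 5 of 7 endothelial markers. Over all tested genes 25.6% were higher and 22.3% lower. Of 3 erythroid markers 1 rose, a share near that of all genes. The part of these cell types in the values of ribosomal protein genes was not tested.

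Rps4l had the lowest fold change of any member and fell under each scaling. It encodes a paralog of the small subunit protein Rps4x. Its signals were 3176.6, 3547.3 and 3179.0 across null pools against 7987.3 and 7768.0 across wild type pools. Every null array was thus far below both wild type arrays, with means of 3301 ± 213 (SD, n = 3) and 7878 ± 155 (SD, n = 2). The normalised level fell by 1.30 log2 units (SE 0.10, adjusted p = 2.43e-05). It fell by 1.25 with the deposited scaling and by 1.50 with median centring, and passed under all 18 alternatives, leave-one-out fits included.

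Rps4x, the X-linked core gene, did not follow. Its signals were 36288.9, 37635.6 and 32974.3 across null pools against 23524.6 and 21488.7 across wild type pools. The null arrays were the brighter ones, yet after quantile scaling the log2 fold change was 0.15 (SE 0.07, adjusted p = 0.123) and did not pass. It passed with the deposited scaling (0.66), median centring (0.42) and cyclic loess (0.40), and without null replicate 1 (0.20, adjusted p = 0.0238). The level of Rps4l relative to Rps4x was -3.15, -3.16 and -3.31 across null pools against -1.72 and -1.79 across wild type pools (log2, quantile scaling), where only the change within the pair can be read because probes differ in brightness. The null minus wild type difference of this ratio was -1.45 log2 units with quantile scaling and -1.91 with the deposited scaling, with no overlap.

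Rps27l, the paralog of Rps27 and a p53 target, was the other member that fell with quantile scaling. Its signals were 8425.7, 7980.9 and 7682.0 across null pools against 8997.8 and 9831.7 across wild type pools. All null arrays were below both wild type arrays, by a smaller step than for Rps4l. The level fell by 0.37 log2 units (SE 0.10, adjusted p = 0.0164), and its 3 probe sets fell by 0.66, 0.45 and 0.37. With the deposited scaling the value was -0.23 and did not pass (adjusted p = 0.0997). The call was also lost without null replicate 2 (adjusted p = 0.0614), null replicate 3 (0.0582) or wild type replicate 3 (0.118), and without a trend in the variance (0.0625). The single probe set of Rps27 was dim, at 396.0, 324.5 and 288.5 across null pools against 211.0 and 477.7 across wild type pools, and overlapped between the groups.

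Rpl7l1, the paralog of the large subunit protein Rpl7, rose. Its signals were 1909.5, 1997.9 and 1970.0 across null pools against 1485.5 and 1398.4 across wild type pools. The groups did not overlap, and the normalised level rose by 0.51 log2 units (SE 0.12, adjusted p = 0.00710). Its other probe sets had 0.34 and 0.41 and did not pass. With median centring the value was 0.19 and the call was lost (adjusted p = 0.316). Rpl7 itself had a log2 fold change of 0.02 (SE 0.08, adjusted p = 0.877), and 0.51 with the deposited scaling. The null minus wild type difference of the ratio of Rpl7l1 to Rpl7 was 0.49 log2 units with quantile scaling but -0.07 with the deposited scaling.

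Rpl22l1, the paralog that Rpl22 is known to repress, had values close to those of its parent gene. Rpl22l1 had signals of 21453.7, 20268.5 and 19727.0 across null pools against 16464.3 and 15262.3 across wild type pools, and a log2 fold change of 0.00 (SE 0.08, adjusted p = 0.995) with quantile scaling. Rpl22 had 0.00 as well (SE 0.07, adjusted p = 0.994), and both passed as higher with the deposited scaling, at 0.37 and 0.44. Their ratio differed between null and wild type by 0.00 with quantile scaling and by -0.07 with the deposited scaling. Rpl3l, the striated muscle paralog of Rpl3, had signals of 8.8 to 82.3 and was too dim to test.

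**Figure D3:**
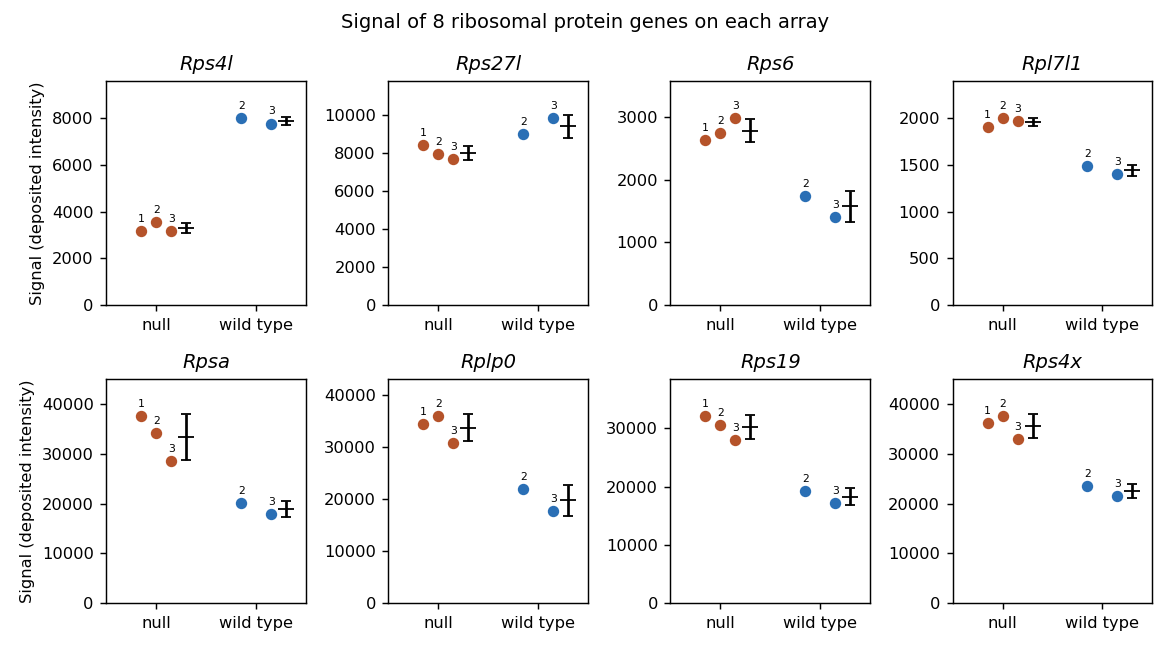
Deposited signal (linear scale from 0) of 8 ribosomal protein genes on each array, numbered by replicate, with the mean and SD of 3 null and 2 wild type arrays beside the points. Null arrays lie below wild type arrays for Rps4l and Rps27l and above them for the other 6, including Rps4x, which did not pass after quantile scaling.

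Rps6, the small subunit protein that S6 kinases phosphorylate, had the largest rise with quantile scaling. Its signals were 2621.2, 2736.6 and 2972.6 across null pools against 1741.9 and 1400.9 across wild type pools. Every null array was above both wild type arrays, with means of 2777 ± 179 (SD, n = 3) and 1571 ± 241 (SD, n = 2). The level rose by 0.88 log2 units (SE 0.13, adjusted p = 0.000802). It rose by 0.82 with the deposited scaling and by 0.58 with median centring, and passed under all 18 alternatives, with values from 0.58 to 1.04. The probe set is dim for a ribosomal protein gene, and a second one, with signals of 58.3 to 112.2, had 0.42 and did not pass (adjusted p = 0.287).

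Rpsa, the laminin receptor precursor that sits near the mRNA exit of the small subunit, rose from high levels. Its signals were 37610.3, 34171.1 and 28479.8 across null pools against 20131.3 and 17818.3 across wild type pools. The groups did not overlap, and the level rose by 0.35 log2 units with quantile scaling (SE 0.07, adjusted p = 0.00440) and by 0.81 with the deposited scaling. The call was lost where Rpsa was the mean of its probe sets, at 0.17 (adjusted p = 0.499), which adds a probe set with signals of 8.1 to 43.7, and without a trend in the variance (adjusted p = 0.0566). The other genes of the mRNA exit list, Rps26 and Rps28, had 0.20 and 0.00 and did not pass with quantile scaling.

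Rplp0 encodes the base of the ribosomal stalk, which binds the GTPases of elongation. Its signals were 34387.1, 35926.6 and 30815.0 across null pools against 21826.3 and 17630.9 across wild type pools. The groups did not overlap, and the level rose by 0.32 log2 units with quantile scaling (SE 0.09, adjusted p = 0.0149) and by 0.78 with the deposited scaling. The call was lost without null replicate 2 (adjusted p = 0.0634) or wild type replicate 3 (0.124), without the brightness filter (0.0643) and without a trend in the variance (0.0933). Rplp2, which pairs with Rplp1 on the stalk, had signals of 38157.1, 35952.7 and 33771.4 against 25258.1 and 22793.7. Its log2 fold change was 0.07 with quantile scaling (adjusted p = 0.445) and 0.58 with the deposited scaling, where it passed.

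Rps19 is the gene most often mutated in Diamond-Blackfan anemia. Of 7 tested anemia genes, only Rps19 passed with quantile scaling (14.3% higher, against 25.6% of all tested genes). Its signals were 32114.3, 30512.8 and 28000.3 across null pools against 19283.7 and 17250.4 across wild type pools. The groups did not overlap, and the level rose by 0.30 log2 units with quantile scaling (SE 0.07, adjusted p = 0.00795). The call was lost without the brightness filter (adjusted p = 0.0509) and without a trend in the variance (0.0865). With the deposited scaling Rps19 rose by 0.73 and all 7 anemia genes passed as higher. In that scaling 39 of the 46 tested members and 27.3% of all tested genes did so too. Rpl11, which with Rpl5 and 5S rRNA forms the particle that binds Mdm2, had signals of 22513.1, 22653.1 and 23156.7 against 17701.2 and 16718.5. Its log2 fold change was 0.01 with quantile scaling (adjusted p = 0.963) and 0.40, where it passed, with the deposited scaling.

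Rps25 and Rpl12, both measured by dim probe sets, rose with quantile scaling and lost the call when single arrays were left out. Rps25, a small subunit protein used by viral internal ribosome entry sites, had signals of 1050.6, 929.2 and 915.3 against 706.9 and 730.5. It rose by 0.44 log2 units (SE 0.14, adjusted p = 0.0273). The call was lost without null replicate 2, null replicate 3, wild type replicate 2 or wild type replicate 3 (adjusted p = 0.0677, 0.0546, 0.114 and 0.0839), and with median centring the value was 0.17 (0.370). Rpl12, a large subunit protein at the foot of the stalk, had signals of 736.4, 390.6 and 414.7 against 296.6 and 263.3. Null replicate 1 was high, and without it the value went from 0.72 (SE 0.26, adjusted p = 0.0483) to 0.44 (adjusted p = 0.0575). The Rpl12 call was also lost without wild type replicate 2 (0.139) or wild type replicate 3 (0.218), with median centring (0.0836), without the brightness filter (0.0824) and without a trend in the variance (0.0607), and lay at the threshold with an added constant of 64.

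The 37 tested members that passed in neither direction with quantile scaling ran from -0.68 for Rpl39 to 0.40 for Rpl27a (log2 fold change), both from dim probe sets. Rpl39, a small protein of the exit tunnel, had signals of 284.8, 161.4 and 312.5 across null pools against 450.3 and 313.2 across wild type pools, an SE of 0.28 and an adjusted p of 0.0759. The null pools lay below the wild type pools by a narrow margin, and Rpl39 passed as lower with median centring (-0.84, adjusted p = 0.0324). Rpl27a had signals of 645.8, 964.2 and 977.0 against 670.8 and 618.3, an overlap through null replicate 1 (adjusted p = 0.142). Rps16, which with Rpl3l was not tested, had signals of 1.3 to 10.0 on its single probe set.

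By the brightest probe set of each gene, the lists of structural neighbours showed no other call with quantile scaling. Dimmer probe sets of Rps3 and Rps9, genes of the mRNA entry list, did pass as higher and are given below. Of the 5 tested genes that line the peptide exit tunnel 0 passed, at a median of -0.01, and of the 3 at the mRNA entry 0 passed, at 0.06. Of all tested genes 25.6% were higher and 22.3% lower. With the deposited scaling 4 of 5 and 3 of 3 passed as higher, against 39 of the 46 tested members and 27.3% of all tested genes. Fau, whose product is cleaved to the small subunit protein eS30 and whose symbol lies outside the rule, had signals of 23030.7, 19982.4 and 19143.3 against 18325.5 and 16489.1 and a log2 fold change of -0.14 (adjusted p = 0.240), or 0.25 with the deposited scaling, and did not pass in either.

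Probe sets of 1 gene often disagreed in size. Of the 92 tested probe sets, 12 were higher and 4 lower with quantile scaling, against 19.3% and 18.3% of 27022 tested probe sets. With the deposited scaling 67 were higher and 2 lower, against 22.9% and 17.4%. Of the 21 genes with more than 1 tested probe set, 10 had values within 0.25 of each other and 4 spread over more than 0.5. Calls in opposite directions were found in 0 of the 21, but only Rps18 and Rps27l had more than 1 called probe set. The members outside these 21 rest on 1 tested probe set or none, and 24 genes have a single probe set. The median spread was 0.29.

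The 4 genes with the widest spreads each had a bright probe set near 0 and a dimmer one that was higher; they were picked out after their values were seen. Rpl22 had a probe set with signals of 4563.1, 5128.3 and 5398.5 against 3054.5 and 2901.5 that rose by 0.79 (adjusted p = 0.000878), while its brightest had 0.00 and the dimmer of the others -0.17, neither of which passed. Rps9 had a dim probe set, at 309.5, 195.3 and 151.9 against 84.6 and 66.1, that rose by 1.11 (adjusted p = 0.0237), and its brightest had 0.11. Rps3 had one that rose by 0.58 (adjusted p = 0.00773) beside 0.06 for the brightest. The values of Rpl41 ran from 0.11 to 1.17 and none passed. Rps18 and Rpl13a, with narrower spreads and also picked afterwards, had calls in probe sets other than the brightest. Of the 3 tested for Rps18, 2 with signals above 10000 on every array rose by 0.39 each (adjusted p = 0.00612 and 0.0111). Its brightest had 0.09 and did not pass. Of the 4 tested for Rpl13a, 1 passed, at 0.30 (adjusted p = 0.0415). Processed pseudogenes and shared stretches are common in this family, and of the 104 probe sets 40 have identifiers that end in x_at and 3 in s_at, the maker's marks for probes that match several transcripts.

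**Figure D4:**
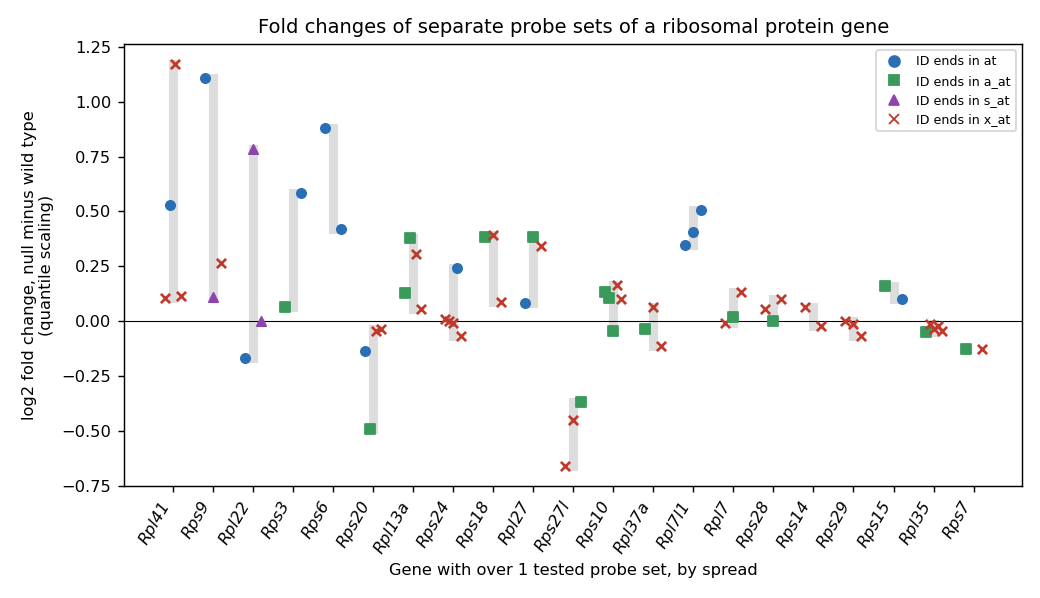
Log2 fold change (null minus wild type, quantile scaling, 5 arrays) of each tested probe set of the 21 ribosomal protein genes with more than 1, ordered by spread (grey bars); symbols give the ending of the probe set identifier. Rpl41, Rps9, Rpl22 and Rps3 spread over more than 0.5, and the 3 probe sets of Rps27l are all below 0.

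Null replicate 1 was compared with the other null arrays. It lay more than 0.5 log2 units below the mean of null replicates 2 and 3 in 6 of 92 member probe sets (6.52%) and above it in 5 (5.43%). Among the 26930 other tested probe sets the shares were 14.1% and 11.7%. The 6 include the only probe set of Rpl37, at 2027.1, 3829.4 and 5483.7 on the null arrays against 3367.4 and 3412.3, which did not pass at 0.07 (SE 0.32). The widest departure upwards was the dim Rpl41 probe set, at 678.2, 261.7 and 217.2.

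Mitochondrial ribosomal protein genes, whose products translate the mitochondrial genome, gave other counts under the same fit. Of 76 tested, 1 was higher and 27 were lower with quantile scaling (35.5% lower, against 22.3% of all tested genes), at a median log2 fold change of -0.28. The counts were 1 and 30 with the deposited scaling (39.5% lower, against 22.5% of all, median -0.34). With median centring they were 0 and 52 (68.4% lower, against 31.3% of all, median -0.58), and with cyclic loess 1 and 29 (38.2% lower, against 23.8% of all, median -0.32). Mrps22 had signals of 1545.2, 1626.4 and 1692.5 across null pools against 3823.0 and 4399.7 across wild type pools, and fell by 1.29 log2 units (SE 0.12, adjusted p = 5.7e-05). Mrpl32 fell by 1.17 and Mrpl55 by 1.09, and the groups did not overlap for these 3 genes. The medians of the cytosolic genes were 0.04, 0.48, 0.23 and 0.25 in the same order of scalings, and the difference between the families was not tested.

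Of 59 tested genes that assemble ribosomes, 5 were higher (8.47%) and 19 lower (32.2%) with quantile scaling, at a median of -0.22, where all tested genes gave 25.6% and 22.3%. The counts were 5 and 21 with the deposited scaling (35.6% lower, against 22.5% of all) and 2 and 32 with median centring (54.2% lower, against 31.3% of all). Wdr36, a factor of the small subunit processome, had signals of 1000.4, 913.1 and 954.8 against 3916.5 and 3126.4 and fell by 1.82 (SE 0.14, adjusted p = 2.3e-05). Pno1, a factor of late small subunit assembly, fell by 1.24 and the RNA helicase gene Ddx10 by 1.29. Of 15 genes of RNA polymerase I and its factors, which transcribe the ribosomal RNA genes, 2 were higher and 4 lower with quantile scaling and 0 and 4 with median centring; the 26.7% lower is near the share of all tested genes in both. Taf1b and Taf1a, of the polymerase I selectivity factor, fell by 1.21 and 1.29, and the polymerase subunit gene Polr1e by 0.66.

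With quantile scaling, initiation factor genes were called at shares near those of all tested genes. Of 29 tested, 5 were higher (17.2%) and 8 lower (27.6%) with quantile scaling, at a median of -0.01, against 25.6% and 22.3% of all. The counts were 9 and 8 with the deposited scaling, but 1 and 8 with median centring, where 3.45% were higher against 15.8% of all. Eif4e, the cap-binding protein, had signals of 3743.9, 4032.5 and 4778.3 against 9469.0 and 10936.1 and fell by 1.39 (SE 0.13, adjusted p = 4.9e-05). Eif2b3 and Eif2b1, subunits of the exchange factor for eIF2, fell by 1.18 and 1.07. Of 5 elongation factor genes 2 were higher and 1 lower with quantile scaling. Eef2, the translocase, rose by 0.45 and Eef1b2 by 0.35. Eef1e1, an auxiliary protein of the tRNA synthetase complex, fell by 2.07, with signals of 930.3, 1103.1 and 1106.0 against 4033.7 and 4942.8.

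Of 14 genes of mTORC1 signalling, S6 kinase and the control of ribosomal protein mRNAs, 3 were higher (21.4%, against 25.6% of all tested genes) and 0 lower with quantile scaling, and 1 and 2 with median centring. The median log2 fold change was 0.16 with quantile scaling and -0.13 with median centring. Myc, a transcription factor that drives ribosome production, had signals of 677.2, 700.8 and 868.7 against 340.1 and 289.8 and rose by 1.15 (SE 0.17, adjusted p = 0.000715). Eif4ebp2, a binding partner of the cap-binding protein, rose by 0.51, and Tsc2, an inhibitor upstream of mTORC1, by 0.60 (adjusted p = 0.0498).

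**Figure D5:**
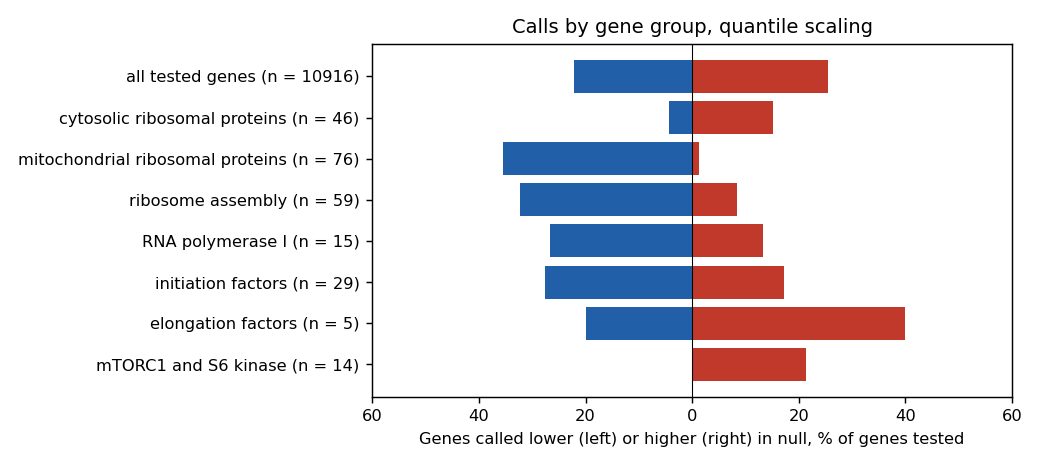
Percent of tested genes called lower (blue, to the left of 0) or higher (red, to the right) in Lhx8 null ovaries by gene group, limma with quantile scaling on 3 null and 2 wild type arrays. Ribosomal protein genes show 15.2% higher and 4.35% lower beside 25.6% and 22.3% of all tested genes, but with the deposited scaling 39 of the 46 were higher.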

How the data were processed

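The deposited intensities were linear, 1 per probe set and array, with a 2% trimmed mean of 500 on every array. GCOS stands in the submitters' processing notes for the wild type arrays only. Background correction and the software of the null arrays are not given in the sources used here. If the null arrays were processed in another way, that difference cannot be told apart from genotype in the deposited values. Intensities of the 45037 probe sets other than controls were put on the log2(signal + 16) scale and quantile normalised. A gene was represented by its brightest probe set, and the lowest 40% of genes by mean were left out. Differences were tested with limma 3.58.1 in R 4.3.3 (lmFit, eBayes with a trend, two-sided) with Benjamini-Hochberg adjustment over 10916 genes, or over 27022 probe sets; all adjusted p-values come from these fits, and fold changes of dim genes are understated by the added constant. On simulated data, 50 of 10916 genes were changed at each size. The fit recovered 4% of changes of 0.5 log2 units, 64% of 1.0, 90% of 2.0 and 100% of 4.0. False calls made up 3.01% of its calls. The simulated spreads were shuffled over genes, so these shares need not hold for bright genes. On the measured arrays 25.6% of tested genes were higher and 22.3% lower, far more than were changed in the simulation. The share recovered with that many changes was not tested. Symbols came from the platform annotation, and all 104 member probe sets had a gene identifier in the RefSeq table of GRCm38.p6. The members, gene lists and tests were chosen with earlier results of these data known. Named were the called members, Rps6, Rpsa, stalk and 5S genes, paralogs with their parent genes, and up to 3 genes of other lists with the smallest p; further names are said to be picked afterwards or stand as examples. Replicate numbers did not pair the arrays (correlations of deviations 0.01 and 0.02). Figures used matplotlib 3.10.9.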

Additional observations from a re-analysis of the deposited data

Results flagged for a closer look

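The 18S ribosomal RNA control probe sets, which no comparison used, had mean signals of 570.4, 303.4 and 307.3 across null pools against 206.9 and 208.4 across wild type pools with the deposited scaling. The null mean was 1.90 times the wild type mean, and every null array was above both wild type arrays. Null replicate 1 was the highest. The spiked-in controls, which carry no ovary RNA, were 1.52-fold to 2.12-fold brighter on null arrays with the same scaling. The part of this difference in the 18S values was not tested.

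The 110 probe sets that list several symbols of which at least 1 is a ribosomal protein gene were outside the members. The median log2 fold change of the 103 that were bright enough was 0.51 with the deposited scaling and 0.06 with quantile scaling. Of these, 81 were higher (78.6%, against 22.9% of all tested probe sets) and 0 lower with the deposited scaling. With quantile scaling 13 were higher (12.6%, against 19.3% of all) and 1 lower.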

How the results depend on the processing

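With the deposited scaling 39 genes were higher and 1 lower (main setting 7 and 2), the median was 0.48 (0.04), 67 probe sets were higher and 2 lower (12 and 4), and the value of Rpl22 turned from 0.00 to 0.443. With median centring the median was 0.234. With cyclic loess 19 genes were higher and the median was 0.252. Without the brightness filter, 4 genes and 7 probe sets were higher. This setting adds genes both to the adjustment and to the fit of the variance trend. The SE of Rplp0 went from 0.0876 to 0.113 and that of Rps6 from 0.135 to 0.126. Which of these changes lowered the counts was not tested. Without probe sets marked x_at or s_at, 2 probe sets were lower. Without a trend in the variance 3 genes were higher and 1 lower, and 5 and 2 probe sets. At a threshold of 0.01, 4 genes were higher and 1 lower, and 5 probe sets were higher. Leaving out 1 array at a time gave 4 to 9 genes higher and 1 to 2 lower, 3 to 20 probe sets higher and 2 to 4 lower, and a median of 0.03 to 0.06. The lowest counts came without wild type replicate 3, and 20 probe sets were higher without null replicate 1. The replicate number does not pair the arrays. With it as a replicate block, 9 genes and 21 probe sets were higher; null replicate 1 has no wild type partner, so this equals the fit of the other 4 arrays with a block. Where a cause is not named here, the cause was not tested. Rps6 and Rps4l passed in 18 of 18 alternatives, Rpl7l1 in 17, Rpsa and Rps19 in 16, Rplp0 in 13, Rps25 and Rps27l in 12, and Rpl12 in 8 of 17. Among values of single named genes, 244 of 286 kept their side of the threshold, 31 lost the call, 10 gained it and that of Rpl22 turned and passed. Of the 244, 18 changed sign without passing, all in Rpl7, Rpl11, Rpl22, Rpl22l1 and Rps27. Precision is limited by 3 against 2 arrays, and no detection calls were used.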
